A study of Mus musculus with 4 samples.

Results

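C1qa, C1qb, C1qc, Csf1r, Ctss and Cd68 are genes of microglia, the resident macrophages of the brain, and their transcripts were followed after foot shock in CA1, a field of the mouse hippocampus. All probe sets whose single gene symbol was one of these names were taken, which gave 9 probe sets for 6 genes, of 12488 probe sets and 8251 named genes on the array. No probe set with several symbols named any of them. The rule used gene names and no measured value, though it was made with earlier results of these data known. The mice were young male C57BL/6J animals, put into the context 2 h beforehand and then given 3 shocks of 0.5 mA, a condition the labels call shock alone. The 4 arrays, 1 per time, read total RNA extracted 1, 2, 4 and 6 h after the last shock. All 4 samples had the shocks, the labels do not say how many mice a sample holds, and no untreated animals were analysed here. With 1 array per time there is no error between replicates, so values, folds and counts are given without a test.

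C1q is the recognition molecule of the classical complement pathway. It is built from the A, B and C chains, which C1qa, C1qb and C1qc encode, and in the brain it is made mainly by microglia and can tag synapses for removal. Csf1r encodes the receptor for the growth factors CSF1 and IL-34, on which microglia depend for survival. Ctss encodes cathepsin S, a lysosomal protease that also processes the invariant chain of MHC class II, and Cd68 encodes a glycoprotein of the lysosomal membrane of macrophages. In bulk tissue a lower value can mean fewer microglia or less RNA per cell, and the arrays cannot tell these apart.

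The 3 C1q genes lie next to each other on chromosome 4, in the order C1qb, C1qc, C1qa in the RefSeq table. The stretches just before the annotated starts of 4 of the 6 genes are shown because genes of 1 cell lineage are read here together, and because PU.1, the factor that Spi1 encodes, is known to act on macrophage promoters through a purine-rich core. They come from RefSeq, build GRCm38.p6, run 5′ to 3′ on the gene's strand and end at the base before the annotated gene. The C1qc stretch is 228 bases, since the rest of its 250-base window lies inside the annotated gene, and the others are 250. Capitals mark GAGGAA or its reverse complement.
C1qb, chr4:136886201-136886450, - strand: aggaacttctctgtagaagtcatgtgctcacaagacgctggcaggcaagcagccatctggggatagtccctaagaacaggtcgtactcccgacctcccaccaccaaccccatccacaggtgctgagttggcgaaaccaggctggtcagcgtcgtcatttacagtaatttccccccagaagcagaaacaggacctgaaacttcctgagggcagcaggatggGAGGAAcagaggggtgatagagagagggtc
C1qc, chr4:136892937-136893164, - strand: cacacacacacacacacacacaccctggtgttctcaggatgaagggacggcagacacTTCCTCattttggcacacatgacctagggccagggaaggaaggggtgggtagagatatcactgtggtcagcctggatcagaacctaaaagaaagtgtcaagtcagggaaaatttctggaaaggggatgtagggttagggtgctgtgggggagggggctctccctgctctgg
Ctss, chr3:95526536-95526785, + strand: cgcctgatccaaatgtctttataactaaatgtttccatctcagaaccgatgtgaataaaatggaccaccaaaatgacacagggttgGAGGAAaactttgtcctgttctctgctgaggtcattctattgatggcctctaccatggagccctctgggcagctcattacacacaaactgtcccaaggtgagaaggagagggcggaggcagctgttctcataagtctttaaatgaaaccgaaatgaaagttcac
Cd68, chr11:69666171-69666420, - strand: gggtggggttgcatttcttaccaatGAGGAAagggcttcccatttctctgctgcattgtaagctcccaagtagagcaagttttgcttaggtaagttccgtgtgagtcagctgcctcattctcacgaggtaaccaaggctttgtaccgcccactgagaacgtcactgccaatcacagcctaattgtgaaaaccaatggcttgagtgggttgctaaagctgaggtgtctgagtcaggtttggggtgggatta
Each of these 4 stretches held the core 1 time, on the gene's own strand in C1qb, Ctss and Cd68 and on the opposite strand in C1qc. Among 32841 promoters of 250 bases, which are longer than the C1qc stretch, 23.3% held it on either strand. The longer GAGGAAGT, which contains the core, was found in C1qc alone of the 4, and in 2.44% of all promoters. The motifs were chosen by hand, and a match describes letters and is no evidence of binding. Spi1 itself was dim, at 131, 169, 58.4 and 51.1 intensity units at 1, 2, 4 and 6 h, and only the values at 1 h and 2 h lay above the floor of 101. That floor is the 40th percentile of all values, and no fold is given for a probe set below it. In the medians and counts over lists of genes, readings below it were set to the floor.

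The arrays differed in quality measures that bear on each result below. The ratio of the 3' to the 5' actin control was 1.84, 2.70, 1.79 and 1.74 at 1, 2, 4 and 6 h, so it was highest at 2 h. The spike-in controls, transcripts added to every sample, stood at 1.16, 0.94 and 0.87 at 2, 4 and 6 h relative to 1 h. The same ratio for Gapdh was 3.98, 4.82, 3.85 and 3.24, also highest at 2 h, and that for 18S was 2.33, 2.42, 2.91 and 4.88, highest at 6 h. Ttr, the leading transcript of the choroid plexus, read 111, 89.9, 198 and 4481.5 over these times. The part of these differences in the microglial values was not tested.

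Of the C1q chains, C1qa and C1qb had narrow spans, except after scaling to the spike-in controls. C1qa, the A chain, read 1378, 1269, 1335 and 1323 intensity units in the order 1, 2, 4 and 6 h. Its highest value was 1.09-fold above its lowest, and 96.1% of the 6448 probe sets above the floor on all 4 arrays had a span at least as wide. C1qb, the B chain, read 717, 634, 659 and 729 from 1 to 6 h, a span of 1.15-fold. Its second probe set, 162276_i_at, was dim, at 135, 134, 128 and 123, with a span of 1.09-fold. C1qb was thus lowest at 2 h and highest at 6 h by its bright probe set, while the dim one was highest at 1 h and lowest at 6 h, and neither differed by as much as 1.2-fold.

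C1qc, the C chain, had a wider span than C1qa and C1qb, though not after scaling to the spike-in controls. With that scaling the spans were 1.39-fold for C1qa, 1.53-fold for C1qb and 1.34-fold for C1qc. C1qc read 1786, 1606, 1248 and 1451 from 1 to 6 h, so it was highest at 1 h and lowest at 4 h. The value at 4 h was 30.1% below that at 1 h, a difference of −0.52 on the log2 scale, where C1qb had −0.12 and C1qa had −0.05, which turned to 0.05 after scaling to the spike-in controls and to 0.02 after scaling to a common median. C1qc remained lower at 4 h than at 1 h under each scaling tried, with −0.42 after scaling to the spike-in controls and −0.45 after scaling to a common median. Its span of 1.43-fold was matched or exceeded by 35.4% of all probe sets above the floor, and by 17.7% of the 3399 whose mean was 500 or more. A single probe set, 92223_at, carries C1qc, so no second one on the array bears on it. For all 3 chains the 2 h value lay below the 1 h value under each scaling tried, with log2 differences of −0.12 for C1qa, −0.18 for C1qb and −0.15 for C1qc. The 2 h array is the one with the actin ratio of 2.70, against 1.84 at 1 h.

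Csf1r, the receptor, gave different courses by its 2 probe sets. The brighter, 104354_at, read 1832, 1510.3, 1955 and 2057 from 1 to 6 h. It was lowest at 2 h and highest at 6 h, a span of 1.36-fold, and 44.1% of all probe sets above the floor had a span at least as wide. Without the 2 h array that span fell to 0.17 on the log2 scale, against 0.45 with it. The dimmer probe set, 161832_r_at, read 283, 201, 241 and 153 over the same times, highest at 1 h and lowest at 6 h. At 6 h over 1 h the brighter one differed by 0.17 (log2) and the dimmer one by −0.89, so the probe sets went opposite ways. The suffix of the dimmer marks a set for which the maker's probe selection rules were relaxed. Both lay lower at 2 h than at 1 h, with log2 differences of −0.28 for the brighter and −0.50 for the dimmer.

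Ctss varied little. It read 2722, 2920.4, 2818 and 3065 intensity units at 1, 2, 4 and 6 h, lowest at 1 h and highest at 6 h, with a span of 1.13-fold. Of all probe sets above the floor, 89.7% had a span at least as wide. At 2 h over 1 h it was the only member gene above 0, at 0.10 (log2), and this turned to −0.11 after scaling to the spike-in controls. Cd68 read 198, 195, 232 and 203 at the same times. It was highest at 4 h, 1.17-fold above 1 h, and the other 3 values lay within 1.04-fold of each other. Its suffix, 103016_s_at, marks a probe set that can read more than 1 transcript. The second probe set of Cd68, 162173_i_at, was below the floor on all 4 arrays, at 5.70, 23.5, 4.70 and 28.3, and is not read further.

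Taking the members together, none of the 6 genes spanned 1.5-fold by its brightest probe set, except after scaling to the spike-in controls, where 2 did, Csf1r at 1.81-fold and C1qb at 1.53-fold. Of the 8 member probe sets above the floor on all 4 arrays, 1 did, the dimmer one of Csf1r, where 27.9% of all such probe sets did. The count of 1 became 0 without the 6 h array and 3 after scaling to the spike-in controls. That scaling moved all 6448 probe sets by a median of 0.40 (log2) at 6 h over 2 h. The share of them spanning 1.5-fold under it is not given here. The median span was 1.17-fold over the 8 member probe sets and 1.32-fold over all 6448. Among those whose mean was 500 or more the median span was 1.24-fold and 12.4% spanned 1.5-fold, so spans were narrower among bright probe sets.

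**Figure D1:**
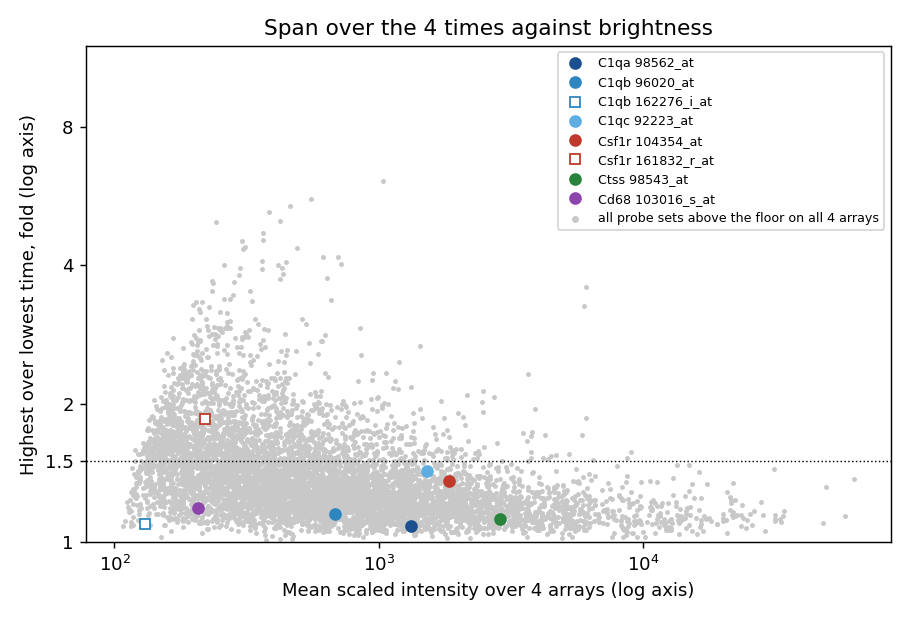
Span over the 4 times (highest over lowest, fold, log axis) against mean scaled intensity (log axis), with member probe sets in colour and all 6448 probe sets above the floor on all 4 arrays in grey. The dotted line is 1.5-fold, and of the member probe sets only the dimmer one of Csf1r, at 1.85-fold, lies above it, as do 27.9% of all probe sets.

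Between pairs of times, no member probe set was at least 1.5-fold higher at the later time in any of 6 pairs, except after scaling to the spike-in controls. The dimmer Csf1r probe set was lower by that much in 2 of them, by 1.85-fold at 6 h relative to 1 h and by 1.57-fold at 6 h relative to 4 h. At 6 h over 1 h that was 1 of 8 past 1.5-fold in either direction, where 9.6% of all probe sets were. At 6 h over 4 h it was 1 of 8, where 8.09% were. With that scaling there were 3 higher and 2 lower over the 6 pairs. The 3 were the brighter Csf1r probe set at 4 h over 2 h (0.68, log2) and at 6 h over 2 h (0.86) and the brighter C1qb probe set at 6 h over 2 h (0.61). The scaling moved all probe sets too, by a median of 0.30 at 4 h over 2 h and 0.40 at 6 h over 2 h. The share of all probe sets past 1.5-fold under it is not given here. Without that scaling the other 4 pairs had 0 of 8. Of all probe sets, 10.4% passed 1.5-fold at 2 h over 1 h and 8.75% at 4 h over 1 h. At 4 h over 2 h 11.4% did, and at 6 h over 2 h 11.7%.

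By direction alone, 7 of 8 member probe sets had a smaller value at 2 h than at 1 h, Ctss being the exception, where 50.1% of all 6448 probe sets did. After scaling to the spike-in controls all 8 did, as did 78.1% of all probe sets. Without that scaling, 3 were higher and 5 lower at 4 h over 1 h, where 48.5% of all probe sets were higher. At 6 h over 1 h, 4 were higher and 4 lower, where 47.9% were higher. Scaling to the spike-in controls gave 5 higher at 4 h and 6 at 6 h, where 61.5% and 73.4% of all were higher. Scaling to a common median gave 4 higher at 4 h and 5 at 6 h, where 57.3% and 60.2% of all were higher. The median over the 6 genes was −0.14 (log2) at 2 h over 1 h, 0.00 at 4 h over 1 h, which was −0.02 after quantile normalization, and 0.03 at 6 h over 1 h. Over all 5674 genes with a mean above the floor the medians were 0.00, −0.01 and −0.01. Scaling to the spike-in controls moved the members' medians to −0.35 at 2 h and 0.23 at 6 h over 1 h, and moved all probe sets the same way, by −0.21 and 0.18.

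**Figure D2:**
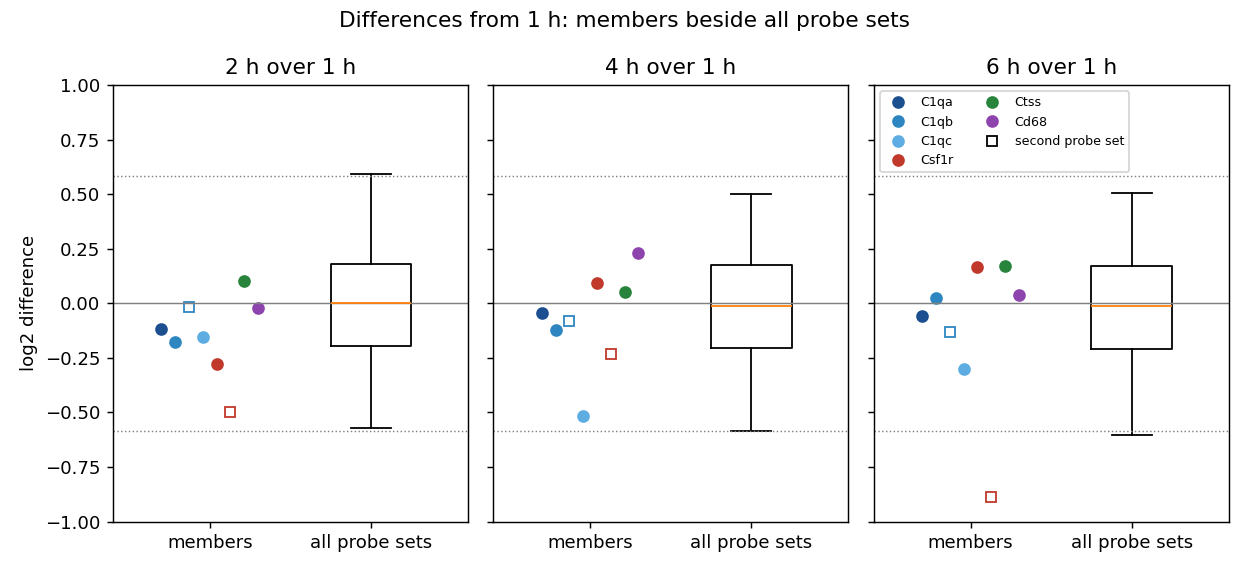
Log2 differences of 2, 4 and 6 h over 1 h for the 8 member probe sets above the floor (points, open squares for second probe sets), beside all 6448 probe sets above the floor (box from the 25th to the 75th percentile with the median, whiskers from the 5th to the 95th). Dotted lines mark 1.5-fold, and only the dimmer Csf1r probe set at 6 h, at −0.89, lies outside them.

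The courses of the members were compared by the root mean square distance between their centred log2 values over the 4 arrays. C1qa and C1qb lay 0.06 apart, and 6.83% of 5020 genes lay nearer to C1qa than C1qb did. C1qc lay 0.19 from C1qa, with 62.3% of genes nearer to C1qa. Counted from C1qc, 26.7% of genes lay nearer to it than C1qa and 26.3% nearer than C1qb. Csf1r lay 0.12 from C1qb and 0.31 from C1qc. Of the neighbouring genes, C1qa and C1qb thus had courses nearer to each other than to most genes, since 4.54% of genes lay nearer to C1qb than C1qa did. Many genes lay nearer to each of them than C1qc, but fewer lay nearer to C1qc than they did. Nearest to the mean course of the chains were Snapin, Prdx2, Cux1, Syt5 and Polr2e, at 0.01 to 0.02. Nearest to Csf1r were Zfp131, Rusc1 and Sat1, to Ctss Fscn1, Rnf4 and Mif4gd, and to Cd68 Cdkl2, Thrap3 and Pclo. With 4 arrays and small spans such matches are many, and they say nothing of shared function.

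Of 32 other microglial markers listed, 22 were on the array. Of these, 10 lay above the floor on all 4 arrays and 7 lay below it on all 4. The other 5, Aif1, Cd53, Fcgr3, Inpp5d and Vav1, crossed the floor between arrays. Of the 10, 2 were past 1.5-fold, where 27.9% of all 6448 probe sets above the floor were. Their median span was 1.20-fold, against 1.32-fold over all 6448. Selplg, a selectin ligand, read 1255, 1197, 1235 and 1310.1 from 1 to 6 h, a span of 1.09-fold. Tyrobp, the signalling adaptor of TREM2, read 879, 823, 823 and 801, a span of 1.10-fold. Cx3cr1, the fractalkine receptor by which microglia are often recognised, read 238, 241, 254 and 226. Laptm5, a lysosomal membrane protein, read 878, 948, 806 and 848. These 4 genes, each within 1.2-fold, followed no common order of times.

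A few microglial markers varied more. Mpeg1, a pore-forming protein of macrophages, read 260, 294, 373 and 433 from 1 to 6 h, higher at each later time, with a span of 1.67-fold. Cd14, a co-receptor for lipopolysaccharide, read 570, 430, 374 and 522, lowest at 4 h with a span of 1.52-fold. Lgmn, the lysosomal protease legumain, read 512 at 1 h and between 648 and 733 later. Over the 13 markers with a mean above the floor the median was −0.02 (log2) at 2 h over 1 h with 6 higher and 7 lower, −0.14 at 4 h with 3 higher and 10 lower, and −0.08 at 6 h with 5 higher and 8 lower. The median at 6 h turned to 0.12 after scaling to the spike-in controls and to 0.01 after scaling to a common median. Of all genes with a mean above the floor, 49.8% were higher at 2 h, 48.3% at 4 h and 47.0% at 6 h. Past 1.5-fold at 6 h over 1 h, 2 of the 13 markers were higher and 1 lower, where 4.32% and 7.16% of all such genes were. At the same limit 0 were higher and 2 lower at 4 h, where 4.21% and 6.49% of all genes were. At 2 h, 0 were higher and 2 lower, where 6.75% and 6.26% were. Of these lower calls, both at 2 h, 1 of the 2 at 4 h and the 1 at 6 h rest on a reading below the floor.

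Complement genes other than C1q were mostly dim. Of 35 listed, 27 were on the array, 14 lay below the floor on all 4 arrays and 5 above it on all 4. Clu, which encodes clusterin, an inhibitor of the terminal pathway made mainly by astrocytes, read 9231, 8908, 10556 and 10650.0 from 1 to 6 h. C1ra, a protease that C1q carries, read 122, 236, 138 and 141, highest at 2 h with a span of 1.93-fold. Its second probe set was above the floor at 2 h only, at 120.3. C5ar1, a receptor for the fragment C5a, read 196, 291, 225 and 286, lowest at 1 h. Cd59a, which blocks the membrane attack complex, read 453, 393, 356 and 303, lower at each later time, with a difference of −0.58 (log2) at 6 h over 1 h. Vtn, which encodes vitronectin, another inhibitor of that complex, read 252, 135, 219 and 154.

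Over the 10 complement genes with a mean above the floor the median was −0.07 (log2) at 2 h over 1 h, −0.09 at 4 h and −0.37 at 6 h. At 6 h, 4 were higher and 6 lower, with 1 higher and 4 lower by at least 1.5-fold, where 4.32% and 7.16% of all genes were. Of those 4 lower, 3 were below the floor at 6 h, and the 1 higher was below it at 1 h. Over the 5 genes above the floor on all 4 arrays, a choice made after the values were seen, the median at 6 h over 1 h was 0.21, with 3 higher and 2 lower, and at 4 h over 1 h it was 0.17. The direction of the list thus turned with the treatment of dim genes.

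Ligands, relatives and regulators of Csf1r were mostly lower at 4 h than at 1 h, under each scaling tried. Csf1, its ligand, read 595, 537, 421 and 535 from 1 to 6 h, lowest at 4 h with a span of 1.42-fold. Csf2ra, a receptor subunit for GM-CSF, was likewise lowest at 4 h, at 123, against 164 at 1 h. Grb2, a signalling adaptor, read 1331, 1575, 1054 and 1113. Kit, a receptor kinase of the same family as Csf1r, read 1018, 983, 958 and 911. Flt3, another of that family, read 583, 561, 408 and 307 by one probe set and 448, 498, 475 and 422 by the other. At 4 h over 1 h these Flt3 probe sets went opposite ways, at −0.51 and 0.08 (log2), and the first, which is brighter, is the one counted. Of 13 genes with a mean above the floor, the 4 h value was above that at 1 h for 2 and below it for 11, the median being −0.34 (log2) and none past 1.5-fold. Of all genes with a mean above the floor, 48.3% were higher at 4 h than at 1 h. At 2 h over 1 h the list's median was −0.05, with 6 higher and 7 lower, where 49.8% of all genes were higher. At 6 h over 1 h it was −0.13, with 5 higher and 8 lower, where 47.0% of all genes were higher. That 6 h median turned to 0.04 after scaling to the spike-in controls. Cebpa, a transcription factor of myeloid cells, read 907, 997, 963 and 937.

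Lysosomal genes, among which Ctss and Cd68 belong, had medians near 0. Of 25 on the array, 18 were above the floor on all 4 arrays. Over the 19 with a mean above it the medians were 0.08, 0.02 and 0.05 (log2) at 2, 4 and 6 h over 1 h, and the first turned to −0.13 after scaling to the spike-in controls. Cst3, which encodes cystatin C, an inhibitor of cathepsin S, read 35277, 34802, 34239 and 31008, lower at each later time with a span of 1.14-fold. Its second probe set went the other way, at 1469, 2023, 2134 and 1759, with a difference of 0.54 (log2) at 4 h over 1 h. Ctsb, cathepsin B, read 5663, 6004, 6034 and 5398 by its brightest probe set. Its next brightest was higher at each later time, at 623, 643, 693 and 720, while another was highest at 1 h, at 474, 302, 324 and 398. Ctsd, cathepsin D, read 3002, 2545, 2873 and 3388. Ctsl, cathepsin L, read 1036, 814, 957 and 1446, so its 6 h value was 1.40-fold that at 1 h, with the choroid plexus transcript Ttr at its highest on the same array. Lamp2, a lysosomal membrane protein, read 242, 225, 389 and 386, but its second probe set, at 195, 175, 212 and 197, differed by 1.21-fold at most.

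Antigen presentation genes, in whose pathway cathepsin S acts, were somewhat higher at 2 h than at 1 h, though not after scaling to the spike-in controls. Of 18 on the array, 9 lay above the floor on all 4 arrays, and 8 of these 9 had a larger value at 2 h than at 1 h, where 49.8% of all genes with a mean above the floor did. The median was 0.19 (log2), and −0.02 after that scaling. At 4 h and 6 h over 1 h the medians were −0.04 and 0.06, and the former turned to 0.05 after that scaling. H2-DMa, which loads peptides onto class II molecules, read 1060.0, 1146, 943 and 1104. Ciita, the activator of class II genes, read 144, 222, 115 and 158, and its 2 h value was 1.54-fold that at 1 h. B2m, the light chain of class I molecules, read 966, 1102, 1253 and 920.1. The 1 gene of the 9 that was lower at 2 h, H2-D1, read 420, 292, 388 and 252, with −0.52 (log2) at 2 h over 1 h. Its second probe set had −0.38. H2-K1, counted as higher, differed by 0.004. Here too the actin ratio was 2.70 on the 2 h array.

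**Figure D3:**
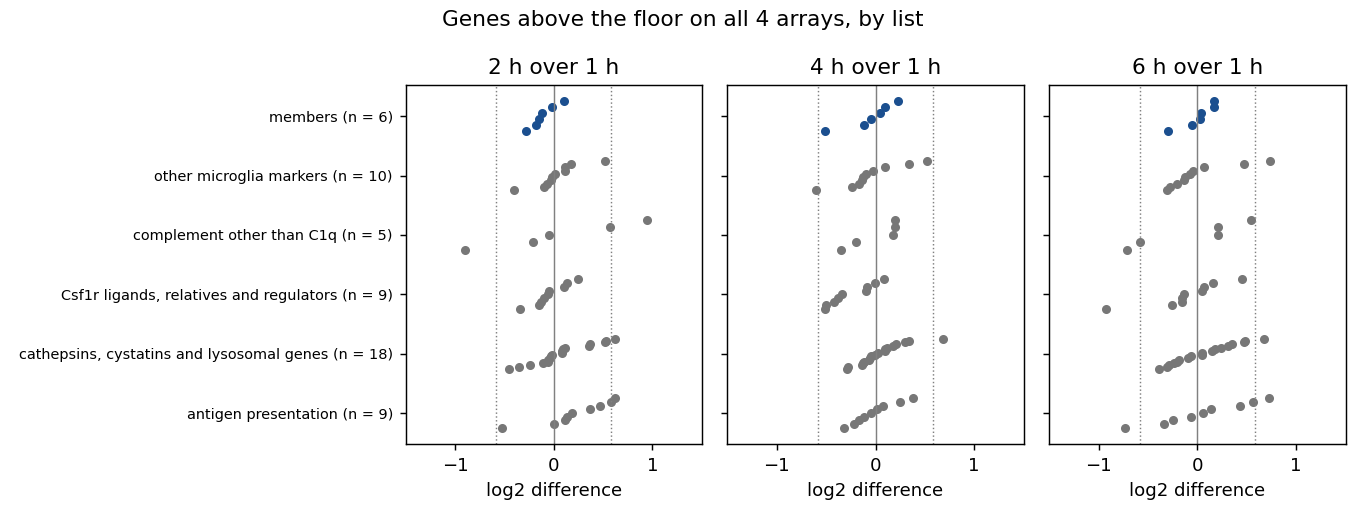
Log2 differences of 2, 4 and 6 h over 1 h for genes above the floor on all 4 arrays, 1 point per gene (brightest probe set), with the members in the top row and 5 lists of related genes below. Dotted lines mark 1.5-fold. The 6 members lie within them at each time, and some genes of the lists do not.

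Markers of border macrophages and blood cells, which can also carry these transcripts, were mostly near or below the floor, apart from globin. Of 9 border macrophage markers on the array, 7 lay below the floor on all 4 arrays and 1, Stab1, above it on all 4, at 171, 191, 203 and 164. Their summed intensity was 427, 588, 588 and 541 at 1, 2, 4 and 6 h. Of 13 blood cell markers, 5 lay below the floor on all 4 arrays and 2, Hba-a1 and Plac8, above it on all 4. Their sum, mostly the globin gene Hba-a1, was 3884, 3856, 4587 and 4333. The summed intensity of the 22 other microglial markers was 6678, 6746, 6277 and 6827. Of 7 pyramidal neuron markers, 6 lay above the floor on all 4 arrays, and at 4 h over 1 h 3 of them were higher and 3 lower. Among the 3 higher was Neurod6, a transcription factor of pyramidal neurons, at 768, 648, 1263 and 1089 from 1 to 6 h. Another was Wfs1, a marker of CA1 cells, at 1709, 1637, 2608 and 2205. These 2 were the only ones of the 6 higher by at least 1.5-fold at 4 h, where 4.21% of all genes were. The 3 lower ones differed by less than 1.5-fold, and the median over the 6 was 0.13 (log2). Of the 8 endothelial and mural markers with a mean above the floor, 7 were lower at 4 h and 7 at 6 h than at 1 h. Their median was −0.18 (log2) at 4 h and −0.30 at 6 h, and below 0 under each scaling. Of the 6 above the floor on all 4 arrays, 5 were lower at 4 h and 5 at 6 h. Of all genes with a mean above the floor, 48.3% were higher at 4 h and 47.0% at 6 h than at 1 h. The part of these shifts in the lower values of C1qc and of the Csf1r list at 4 h was not tested.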

How the data were processed

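Total RNA from CA1 was read on Affymetrix arrays, 1 per time. The deposited table gives 1 linear intensity per probe set and array, 12488 probe sets in all. As deposited the arrays already stood at nearly the same level, as the scaling factors given below show. The mean after dropping 2% of values from each tail, averaged over the 4 arrays, was 500.3. The processing software is not given in the sources used here. Precision is limited by there being 4 arrays. Of 12422 probe sets other than the 66 controls, 10833 had 1 gene symbol, 396 several and 1193 none, by the platform annotation. All 6 members matched RefSeq by gene identifier. Each array was scaled to the same trimmed mean without controls (factors 0.999 to 1.00), values under 100.6 were raised to it as a floor, and the log2 was used. The intensities printed are scaled values before the floor. A list's median covers members with a mean above the floor, by the brightest probe set of a gene.

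Probe sets or genes past 1.5-fold were counted, with no test, and the steps were tested on simulated data. The members, lists and limits were chosen with earlier results of these data known. Named are all members, up to 5 genes of each list by brightness and 3 by span, the nearest courses, and controls. Spi1, Cx3cr1, Aif1, Cd53, Fcgr3, Inpp5d, Vav1 and, in the closing section, C2, Mbl1, Itgax, Irf8 and Serping1 were added with their values known. Alternatives tried were no further scaling, a common median, the spike-in controls or quantiles for scaling, a floor at the 20th or 60th percentile, plain probe sets, means over probe sets or members, other fold limits, and each array left out. The tools were pandas 2.3.3 and NumPy 2.4.6 under Python 3.11.15, with matplotlib 3.10.9 for figures.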

Additional observations from a re-analysis of the deposited data

How the results depend on the processing

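Of the recomputed medians and counts, 88 moved by less than 0.1 (log2) or, for counts, stayed within 1.5 times, and 20 moved more. Scaling to the spike-in controls gave medians of −0.35 and 0.23 for the members, −0.23 and 0.12 for the other microglial markers, and −0.20 and −0.21 for complement, at 2 h and 6 h over 1 h. The complement median at 4 h over 1 h was −0.19 under the floor of the 20th percentile and −0.22 as a mean over members. At 6 h over 1 h it was −0.19 under that of the 60th percentile and −0.58 with plain probe sets only. Over genes above the floor on all 4 arrays, an alternative added after seeing the data, it was 0.17 at 4 h and 0.21 at 6 h over 1 h. The other microglial markers at 6 h over 1 h had a mean of 0.039 over members. The number of member probe sets spanning 1.5-fold, 1 in the report, was 3 after scaling to the spike-in controls, 0 under the floor of the 60th percentile, and 0 to 1 with each array left out in turn, with 0 without the 6 h array. Summed over the 6 pairs of times, there were 2 instances of a member probe set past 1.5-fold. These became 5 (3 higher and 2 lower) after scaling to the spike-in controls and 0 under the floor of the 60th percentile. At the smaller fold limit tried there were 8 instances, and at 2-fold there were 0. The share of all probe sets past these other limits is not given here. The 8 and the 0 thus do not show whether members passed more or less often than other probe sets. No paired analysis was possible because each time has 1 array and the labels give no replicate numbers. Signal near the floor limits Cd68 and the second probe sets of C1qb and Csf1r.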

Other observations

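Several dim genes of microglia and complement crossed the floor between arrays. C2, a protease of the classical pathway, read 194, 143 and 171 at 1, 2 and 4 h and was below the floor at 6 h, at 42.7. Mbl1, a mannose-binding lectin, read 148, 133 and 105 at those times and 8.79 at 6 h, and the integrin subunit Itgax read 189, 234 and 157 and then 35.4. In the other direction, Aif1, which encodes the microglial protein IBA1, was below the floor at 1, 2 and 4 h and read 155 at 6 h. Serping1, the inhibitor of C1, was below the floor at 1 h and 4 h, and read 124 at 2 h and 172 at 6 h. Irf8, a transcription factor of microglia, was below the floor at 1 h and read 183, 143 and 134 later. Each rests on 1 array per time and on signal close to the floor of 101.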
